A study of Mus musculus with 24 samples.

Results

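The genes described here are 10 markers of the stromal progenitor cells of fat, PDGFRA, DPP4, PI16, CD34, LY6A, ICAM1, F3, CLEC11A, DLK1 and CD55 (upper case in the deposited table, mouse style below). They were chosen by name, with earlier results of these data known. All 10 were found among 35727 genes and passed the filter that left 15259 tested. Inguinal white adipose tissue (iWAT, the subcutaneous fat of the groin) of male mice aged 18 to 22 weeks was profiled by bulk RNA-seq. Wild-type mice (WT) and AdL3KO mice (KO), which the series title describes as deleted for the phospholipid-remodelling enzyme LPCAT3, ate high-fat diets with 60% of calories from fat. The diets are labelled by the kind of fat that was enriched, saturated (the SFA diet), omega-6 (the n6 diet) or omega-3 (the n3 diet). Each of the 6 combinations of genotype and diet had 4 libraries, 24 in all, and none of these groups ate a low-fat diet. The sources used here name neither the promoter nor the cell type behind the deletion. The series title names mature adipocytes, but its protocols describe no separation of cells, so the values are read as whole tissue. Nothing says that each library came from its own mouse, so the p-values measure only the spread between libraries, which may be technical.

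White fat is made of lipid-filled adipocytes and a stromal fraction that holds fibroblast-like progenitors, vessels and immune cells. New adipocytes arise from progenitors that carry the PDGF receptor alpha. In inguinal fat of the mouse these cells are divided into an interstitial group marked by the peptidase DPP4 and the secreted protein PI16, a committed preadipocyte group marked by the adhesion protein ICAM1, and a group marked by CD142, the tissue factor encoded by F3. CD34 and LY6A (Sca-1) are surface proteins used to sort progenitors, but vessels also carry them, and ICAM1 is made by endothelium as well. CD55 is a complement inhibitor of the interstitial group, CLEC11A is a secreted stromal growth factor, and DLK1 (Pref-1) is an inhibitor of adipogenesis that preadipocytes lose as they mature.

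The libraries held 43599424 to 62128983 estimated counts. Levels below are CPM scaled by the TMM method, and levels between genes are compared only in the deposited TPM, which allows for transcript length. Lpcat3, the targeted gene, ran at 97.8 to 129 CPM in WT and 70.8 to 80.99 in KO on SFA, at 66.02 to 72.9 and 47.7 to 50.1 on n6, and at 112 to 119 and 53.7 to 61.3 on n3, so it stayed detectable in KO but the genotypes did not overlap on any diet. The 14 adipocyte markers summed to 46954 to 61767 CPM over all groups. Replicate 3 of WT on SFA and replicates 1 and 2 of KO on n6 were high in B cell or muscle markers. Replicate 3 of KO on SFA was the lowest of its group in 7 of the 10 markers, with a mean log2 CPM over 10 general stromal genes of 6.53, against 6.82 to 6.97 in its group. Of the mesothelial markers, Msln, Upk3b, Upk1b and Wt1 were too low to be tested.

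By TPM the markers spanned a wide range. In WT on SFA, Ly6a was highest at 264 ± 9.05 TPM (mean ± SD, n = 4 libraries), above Cd34 at 128 ± 7.89 and Pi16 at 125 ± 4.49, which overlapped. Cd55 followed at 60.6 ± 3.43 TPM, then F3 at 32.4 ± 2.48, Pdgfra at 25.3 ± 2.03, Dpp4 at 15.2 ± 0.430 and Icam1 at 12.4 ± 0.715, with no overlap between neighbours. Clec11a at 1.78 ± 0.209 and Dlk1 at 0.687 ± 0.275 TPM were lowest, and Dlk1 rested on only 8 to 51 counts per library. In KO on SFA the order changed at 2 places: F3 at 55.9 ± 7.71 TPM stood above Cd55 at 42.3 ± 4.99, and Icam1 at 11.2 ± 1.32 above Dpp4 at 9.67 ± 1.80, each pair overlapping.

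The promoters of the 5 markers whose genotype difference was clearest are shown because 4 of them fell together and the other rose. Each line gives the 100 bases before the RefSeq transcription start (GRCm38.p6, the assembly also called mm10), 5′ to 3′ on the gene's strand; for Pi16 that start lies inside the longer gene span given below. Capitals mark a CCAAT box (CCAAT) or a GC box (GGGCGG), each searched on both strands, so that CCGCCC is a GC box on the other strand.
Pdgfra, chr5:75152151-75152250, plus strand: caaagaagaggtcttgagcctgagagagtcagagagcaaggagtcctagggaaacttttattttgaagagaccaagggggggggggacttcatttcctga
Dpp4, chr2:62412232-62412331, minus strand: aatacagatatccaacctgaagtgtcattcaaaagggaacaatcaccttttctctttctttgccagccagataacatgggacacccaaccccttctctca
Pi16, chr17:29318782-29318881, plus strand: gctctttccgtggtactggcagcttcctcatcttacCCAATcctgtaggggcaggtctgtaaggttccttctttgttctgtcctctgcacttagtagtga
Cd55, chr1:130462745-130462844, minus strand: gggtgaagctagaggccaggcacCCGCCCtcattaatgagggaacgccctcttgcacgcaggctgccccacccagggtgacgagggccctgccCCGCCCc
F3, chr3:121723437-121723536, plus strand: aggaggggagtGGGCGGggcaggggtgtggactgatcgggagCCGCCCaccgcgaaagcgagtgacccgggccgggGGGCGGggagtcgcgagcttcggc
The F3 stretch holds 3 GC boxes and the Cd55 stretch 2, Pi16 has a single CCAAT box, and neither motif was found in those of Pdgfra and Dpp4. Over the window of 300 bases (250 before to 50 after the start), GC content was 70.3% in F3 and 63.3% in Cd55, against 53.3% in Pi16, 51.00% in Pdgfra and 45.3% in Dpp4. The median of all 32851 promoters of that length was 52.7%. The F3 window also holds 2 AP-1 motifs (TGANTCA), first bases 146 and 135 before the start. Over the same window of 300 bases, a GC box was present in 35.66% of all promoters and a CCAAT box in 37.41%. An AP-1 motif was present in 7.808%. The GC and CCAAT box counts above are for the 100 bases printed, a shorter stretch. These matches describe letters and not binding. Of the 10 markers, 9 had a promoter entry, and Ly6a had none.

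Across genotypes, 4 of the 10 markers were lower in KO on both SFA and n6 (Pdgfra, Dpp4, Pi16 and Cd55), and F3 was higher in KO on all 3 diets. Averaged over diets, 5 markers fell in KO and F3 rose. The change was -20.9% in Pdgfra, -19.8% in Pi16, -18.4% in Dpp4, -13.4% in Cd55 and -11.2% in Cd34, while F3 rose 1.70-fold. Their adjusted p-values (edgeR's quasi-likelihood test, Benjamini-Hochberg over all tested genes) ran from 6.71e-11 for F3 to 6.62e-04 for Cd34. Ly6a (-0.08 ± 0.04), Dlk1 (-0.35 ± 0.15), Clec11a (-0.15 ± 0.08) and Icam1 (-0.04 ± 0.05, log2 fold change ± SE) did not pass the threshold of 0.05. These counts stand against a broad genotype difference: averaged over diets, 29.8% of all tested genes were lower and 27.8% higher. The median log2 fold change was -0.19 over the 10 markers and -0.01 over all tested genes.

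**Figure D1:**
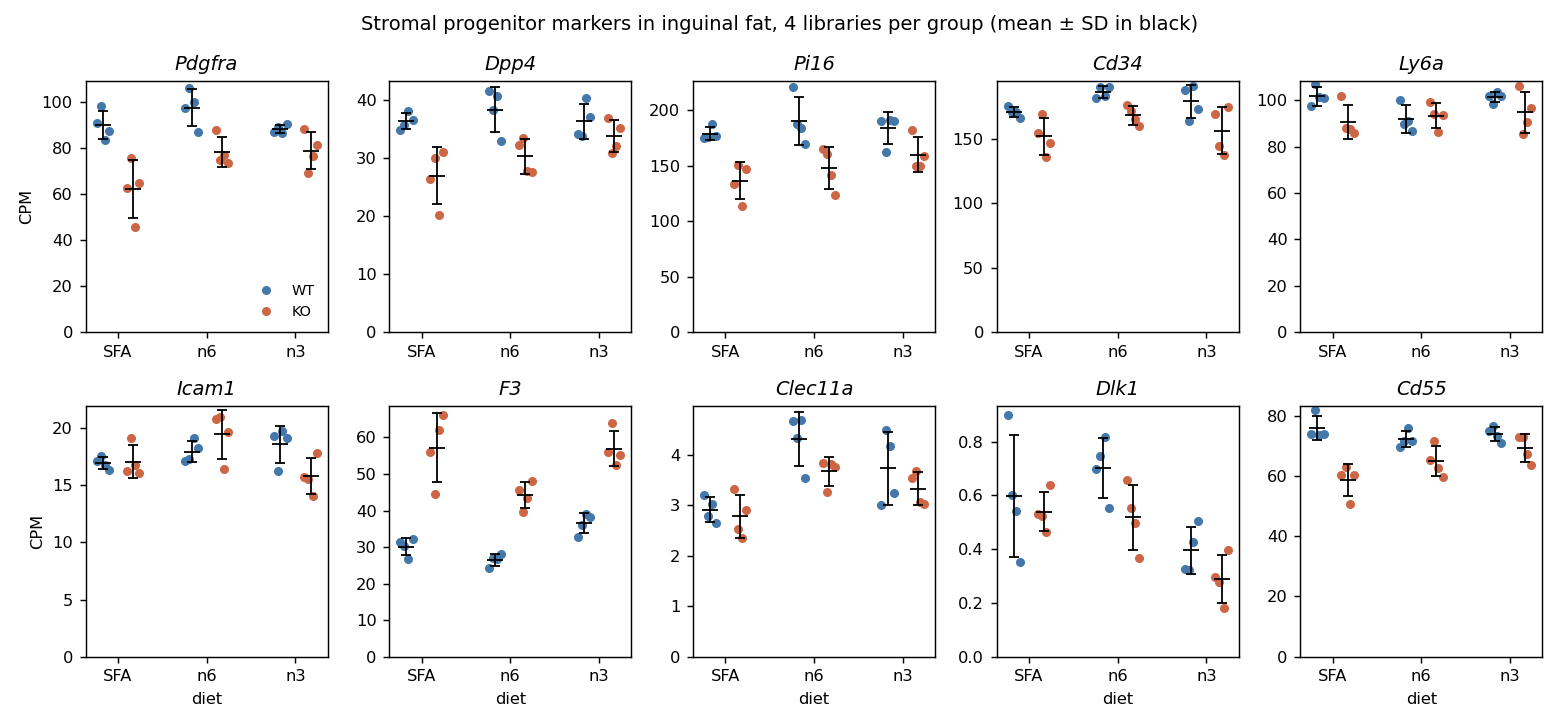
CPM of the 10 markers (vertical axes, each starting at 0) by diet in WT (blue) and KO (orange); points are libraries, black bars the mean ± SD of 4. On SFA the KO points of Pdgfra, Dpp4, Pi16 and Cd55 lie below all WT points, and the KO points of F3 lie above the WT points on every diet.

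On SFA, 6 markers were lower and 1 was higher in KO, against 19.9% of all tested genes lower and 20% higher. On n6, 4 were lower and 1 was higher, against 22.1% and 21%. On n3, 2 were lower and 1 was higher, against 18.7% and 20.1%, so the count of lower markers on n3 was close to that background. Without KO replicate 3 on SFA, Dpp4 (-0.32), Pi16 (-0.31), Cd55 (-0.31) and F3 (0.88, log2 fold change) still passed. The plot of log2 fold changes shows the markers by diet. The median of the 10 was -0.17 on SFA, -0.19 on n6 and -0.16 on n3, beside -0.00, 0.00 and -0.03 for all tested genes. In the deposited TPM, tested with limma on log2(TPM + 1), 6, 7 and 8 markers were lower on the 3 diets in that order and F3 alone was higher. That scale moved the whole table: of the genes called, 16.2%, 14.5% and 10.8% were higher in KO, against 50.2%, 48.8% and 51.7% with edgeR. The median gene itself lay at -0.12, -0.16 and -0.19, and relative to it Pdgfra differed by -0.55, -0.32 and -0.24.

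**Figure D2:**
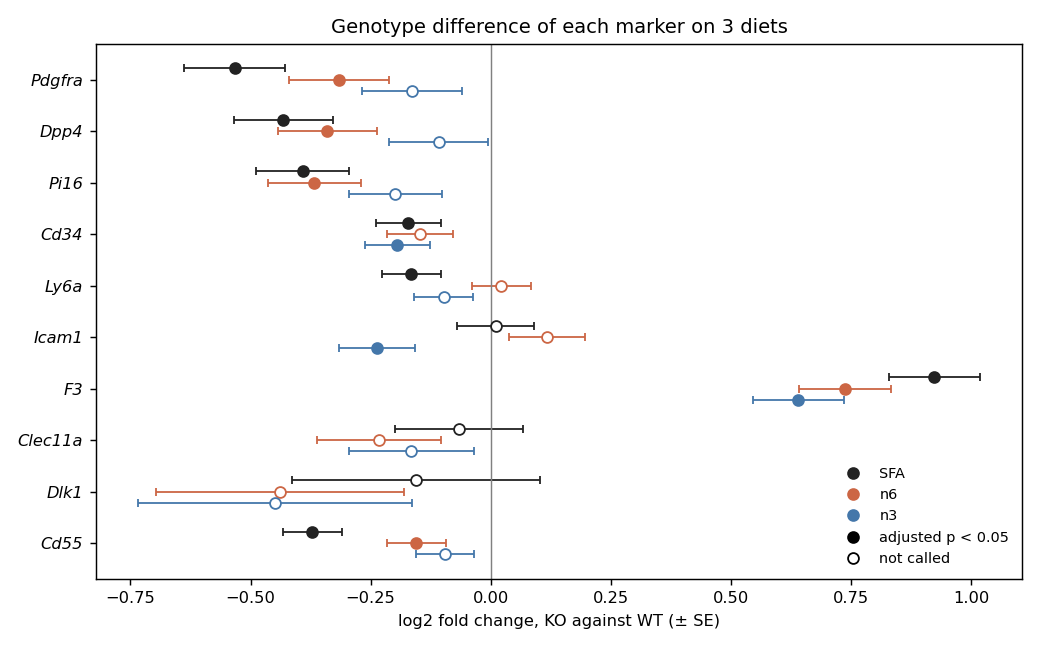
Log2 fold change of KO against WT ± SE (horizontal axis) for each marker (vertical axis) on SFA (black), n6 (orange) and n3 (blue); filled points passed an adjusted p of 0.05. F3 stands at 0.64 to 0.92, and Pdgfra moves from -0.53 on SFA to -0.16 on n3.

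Pdgfra (chr5:75152292-75198215 in mm10, plus strand) encodes the receptor for PDGF ligands that defines the progenitor lineage. On SFA the WT libraries had 90.8, 97.98, 83.6 and 87.3 CPM and the KO libraries 62.6, 75.6, 45.6 and 64.8, with no overlap and KO replicate 3 the lowest of all 24 libraries. Pdgfra fell by 30.9% there (log2 fold change -0.53 ± 0.10, SE; adjusted p = 3.18e-04), and the log2 fold change was -0.41 without that replicate. On n6 the WT libraries had 97.2, 106, 99.8 and 86.7 CPM and the KO libraries 87.98, 74.9, 76.9 and 73.6, and the groups overlapped through KO replicate 1. Pdgfra fell by 19.6% on n6 (log2 fold change -0.32 ± 0.10, SE; adjusted p = 0.0178), and the call was lost without WT replicate 2 (adjusted p = 0.0660) or KO replicate 4 (adjusted p = 0.0522). On n3 the WT libraries kept to a narrow band of 86.8, 89.00, 86.6 and 90.5 CPM, and the KO libraries had 88.1, 69.1, 76.4 and 81.4, of which 1 lay inside that band. The difference of -0.16 ± 0.10 did not pass the threshold (adjusted p = 0.226). For this and every marker below, a change in cell numbers and a change in RNA per cell cannot be told apart in bulk tissue. Nor can progenitors be told apart from other cells that carry the same RNA.

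Dpp4 (chr2:62330073-62412231, minus strand) encodes a membrane peptidase, and Pi16 (chr17:29317680-29330593, plus strand) a secreted protein of the same interstitial progenitors. On SFA, Dpp4 stood at 34.9, 35.8, 38.1 and 36.5 CPM in WT and 26.4, 29.99, 20.3 and 31.1 in KO, with no overlap. It fell by 25.9% on SFA (log2 fold change -0.43 ± 0.10, SE; adjusted p = 0.00198). On n6 it was 41.5, 38.3, 40.6 and 32.97 CPM in WT and 32.3, 33.5, 27.8 and 27.7 in KO, overlapping at WT replicate 4 and KO replicate 2, and fell by 21.02% (log2 fold change -0.34 ± 0.10, SE; adjusted p = 0.0104). On n3 it was 34.2, 33.8, 40.4 and 37.04 CPM in WT and 36.9, 30.9, 32.1 and 35.1 in KO, which overlapped, with a difference of -0.11 ± 0.10 that did not pass (adjusted p = 0.428).

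Pi16 on SFA was 175, 176, 188 and 177 CPM in WT and 134, 150.4, 114 and 147 in KO, and on n6 221, 188, 184 and 169.7 in WT and 165, 161, 142 and 124 in KO. On both diets every KO library lay below every WT library. Pi16 fell by 23.7% on SFA (log2 fold change -0.39 ± 0.10, SE; adjusted p = 0.00254) and by 22.5% on n6 (log2 fold change -0.37 ± 0.10, SE; adjusted p = 0.00376). On n3 the values were 190.4, 162, 192 and 191 CPM in WT and 182, 149.7, 149.7 and 159 in KO, overlapping, and the difference of -0.20 ± 0.10 did not pass (adjusted p = 0.109). The ratio of Dpp4 to Pi16 in TPM, taken after their values were seen, was 0.122 ± 0.00584 in WT and 0.113 ± 0.00749 in KO on SFA, with overlapping ranges. The falls of Dpp4 and Pi16 on SFA and n6 passed with each library left out in turn.

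Cd55 (chr1:130439027-130462744, minus strand) protects cells from complement. On SFA it was 73.8, 81.7, 73.6 and 73.7 CPM in WT and 60.3, 62.9, 50.8 and 60.2 in KO, with no overlap, and fell by 22.7% (log2 fold change -0.37 ± 0.06, SE; adjusted p = 3.66e-05). On n6 it was 69.5, 71.6, 75.9 and 71.5 in WT and 65.3, 71.5, 62.6 and 59.8 in KO, where only KO replicate 2 reached the WT range. Cd55 fell by 10.2% on n6 (log2 fold change -0.15 ± 0.06, SE; adjusted p = 0.0441), and that call was lost under RLE scaling (adjusted p = 0.0602), DESeq2 (adjusted p = 0.0597) and no low-count filter (adjusted p = 0.0514). It also needed every library but WT replicate 1 and KO replicate 2, with an adjusted p of up to 0.155 without KO replicate 4. On n3 Cd55 was 74.7, 76.6, 73.3 and 70.96 in WT and 72.8, 73.01, 67.4 and 63.6 in KO, and the difference of -0.10 ± 0.06 did not pass (adjusted p = 0.229). Mice carry a close copy, Cd55b, which did not pass the filter, and reads shared by the copies could be assigned to either.

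Cd34 (chr1:194938819-194961279, plus strand), a sialomucin of progenitors and vessels, fell on average by 11.2% (log2 fold change -0.17 ± 0.04, SE; adjusted p = 6.62e-04). On SFA it was 176, 171, 171 and 166 CPM in WT and 155, 169.8, 136 and 147 in KO, and on n3 188, 164, 192 and 173 and 169, 145, 138 and 175, both overlapping. Its differences of -0.17 ± 0.07 on SFA (adjusted p = 0.0481) and -0.19 ± 0.07 on n3 (adjusted p = 0.0269) were near the threshold. The first was lost with RLE scaling (adjusted p = 0.0513), with no low-count filter (adjusted p = 0.0609) and on leaving out any of the 8 libraries but KO replicate 2 (adjusted p up to 0.185). The second was lost with only the groups compared in the fit (adjusted p = 0.0827) and without WT replicate 1 or 3 or KO replicate 2 or 3 (adjusted p up to 0.126). On n6 the WT libraries at 182, 190.1, 184 and 191 CPM lay above the KO libraries at 177, 171, 166 and 160.1, without overlap, but the difference of -0.15 ± 0.07 did not pass (adjusted p = 0.0844). The average kept its call with each of the 24 libraries left out.

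Ly6a (chr15:74994877-74998031, minus strand) encodes Sca-1, a GPI-anchored protein of progenitors and endothelium. It varied least of the 10, from 85.3 to 107 CPM over the 24 libraries. On SFA it was 97.4, 107, 101 and 101 CPM in WT and 102, 87.9, 87.4 and 85.7 in KO, with KO replicate 1 inside the WT range. The difference of -0.17 ± 0.06 (adjusted p = 0.0348) was lost without any of WT replicates 2, 3 and 4 or KO replicates 2, 3 and 4 (adjusted p up to 0.111). It was 0.02 ± 0.06 on n6 and -0.10 ± 0.06 on n3, neither past the threshold. On n6 the TPM scale turned the sign (-0.19, adjusted p = 0.0441), by about the shift of its median gene. Ly6a has close relatives in its gene cluster, so part of its reads may be shared with them.

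F3 (chr3:121723537-121735048, plus strand) encodes tissue factor, the receptor that starts coagulation, and names the CD142+ group of stromal cells. On SFA it was 31.3, 30.4, 26.8 and 32.2 CPM in WT and 56.1, 44.6, 61.9 and 66.2 in KO. On n6 it was 24.2, 27.1, 26.8 and 28.1 in WT and 45.7, 39.7, 43.5 and 48.1 in KO, and on n3 32.8, 36.1, 39.1 and 38.2 in WT and 56.2, 63.8, 52.6 and 55.3 in KO. Every KO library was above every WT library of its diet, and the lowest KO library of any diet was above the highest WT library of all 3. F3 rose 1.90-fold on SFA (log2 fold change 0.92 ± 0.10, SE; adjusted p = 8.91e-08), 1.67-fold on n6 (log2 fold change 0.74 ± 0.10, SE; adjusted p = 1.99e-06) and 1.56-fold on n3 (log2 fold change 0.64 ± 0.09, SE; adjusted p = 1.57e-05). These calls stood in every alternative run, leaving out each library included.

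Within a library, the ratio of F3 to Pdgfra in TPM needs no scaling between libraries. It was chosen after the values were seen. The ratio was 1.34, 1.18, 1.25 and 1.38 in WT and 3.59, 2.34, 5.33 and 3.82 in KO on SFA, where KO replicate 3, lowest in Pdgfra, was the highest. On n6 it averaged 1.05 ± 0.152 in WT and 2.17 ± 0.215 in KO, and on n3 1.53 ± 0.125 and 2.82 ± 0.494 (mean ± SD, n = 4 each). The ranges of the genotypes did not overlap on any diet. The ratio of Pi16 to Pdgfra, in contrast, was 4.97 ± 0.506 in WT and 5.54 ± 0.511 in KO on SFA, with overlapping ranges. That of Icam1 to Pdgfra was 0.494 ± 0.0330 in WT and 0.737 ± 0.142 in KO on SFA, without overlap, and overlapped on n6 and n3. Pdgfra fell on SFA, so a ratio to it can rise there without a rise of the other gene.

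**Figure D3:**
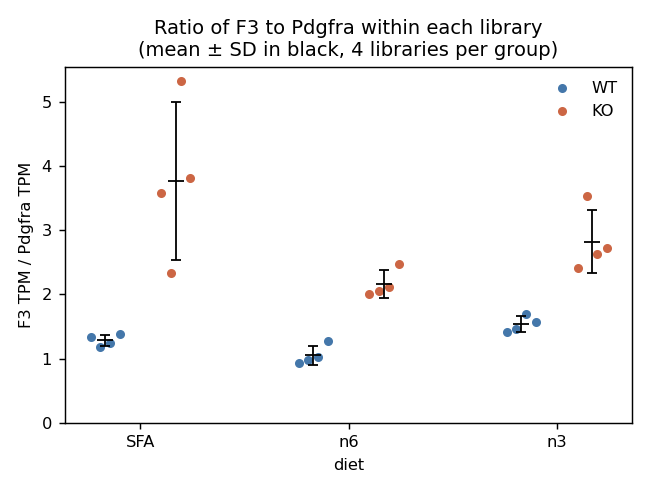
Ratio of F3 TPM to Pdgfra TPM in each library (vertical axis, from 0) by diet, WT in blue and KO in orange, with the mean ± SD of 4 in black. The KO ratios run from 2.01 to 5.33 and the WT ratios from 0.932 to 1.69.

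Icam1 (chr9:21015985-21028817, plus strand) encodes a ligand of leukocyte integrins. On SFA it was 17.1, 17.6, 16.7 and 16.3 CPM in WT and 16.2, 19.1, 16.7 and 16.02 in KO, on n6 17.1, 17.2, 19.1 and 18.2 and 20.8, 20.96, 16.4 and 19.6, and on n3 19.3, 16.2, 19.7 and 19.1 and 15.7, 15.6, 14.02 and 17.8. The genotypes overlapped on all 3 diets. Icam1 fell by 15.1% in KO on n3 (log2 fold change -0.24 ± 0.08, SE; adjusted p = 0.0222), and differed by 0.01 ± 0.08 on SFA and 0.12 ± 0.08 on n6, neither past the threshold. The fall on n3 was lost without WT replicate 3 (adjusted p = 0.0610), KO replicate 2 (adjusted p = 0.0502) or KO replicate 3 (adjusted p = 0.0967).

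Clec11a (chr7:44302687-44306902, minus strand) and Dlk1 (chr12:109452823-109463336, plus strand) were the 2 scarcest markers, and neither differed between genotypes past the threshold on any diet. Clec11a differed by -0.07 ± 0.13, -0.23 ± 0.13 and -0.17 ± 0.13 on SFA, n6 and n3, on 122 to 274 counts per library. Dlk1 differed by -0.16 ± 0.26, -0.44 ± 0.26 and -0.45 ± 0.29. On the TPM scale (limma on log2(TPM + 1)) its differences were -0.13, -0.01 and -0.11, none past the threshold. Its mean on n6 was 0.922 TPM in WT and 0.942 in KO, so the difference seen there in counts was absent in TPM. A difference of the size seen in Pdgfra on n6 lies within 2 standard errors of 0 in Dlk1.

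Whether the genotype difference itself depended on the diet was tested directly. In the single F test over the 3 diets, 0 of the 10 markers were called (edgeR), against 6.44% of all tested genes. At an unadjusted p under 0.05 there were 2, Cd55 (adjusted p = 0.0852) and Icam1 (adjusted p = 0.0998), and DESeq2 called 1. The smaller fall of Pdgfra on n3 than on SFA was a difference of 0.37 ± 0.15 that did not pass (adjusted p = 0.196), nor did that of Dpp4 (0.32 ± 0.15, adjusted p = 0.254). No marker was called for n3 minus SFA (5 at an unadjusted p under 0.05, 1 by DESeq2; background 0.819%) or for n6 minus SFA (2 at an unadjusted p under 0.05, 0 by DESeq2; background 0.898%).

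For n3 minus n6, where 9.1% of all tested genes were called, Icam1 alone was called. Its genotype difference on n3 minus that on n6 was -0.35 ± 0.11 (log2; adjusted p = 0.0498). The call was at the threshold and was lost without the 3 B cell- or muscle-rich libraries (-0.24, adjusted p = 0.253) and on leaving out any of 11 of the 16 libraries singly (all but WT replicates 3 and 4 and KO replicate 3 on n6, WT replicate 2 and KO replicate 4 on n3), with an adjusted p of up to 0.115.

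Few markers were called between diets within a genotype. For n6 against SFA and for n3 against n6, the counts were near or below the share over all tested genes. The comparisons within a genotype share their groups, so their values are given side by side. On the TPM scale the share of called genes that were higher went from 47.1% to 91.7% for n6 against SFA in WT and from 39.2% to 87.1% in KO, and for n3 against n6 from 53.3% to 14.2% in WT and from 60.5% to 9.42% in KO. In WT, n6 against SFA called Clec11a alone, which rose 1.48-fold (log2 fold change 0.56 ± 0.13, SE; adjusted p = 0.00317), against 24.7% of all tested genes called. Its values were 3.21, 2.78, 3.02 and 2.64 CPM on SFA and 4.68, 4.33, 4.70 and 3.55 on n6, without overlap. In KO, where 22.8% of genes were called, Clec11a rose 1.32-fold (log2 fold change 0.40 ± 0.13, SE; adjusted p = 0.0334), Pdgfra rose by 0.33 ± 0.10 (adjusted p = 0.0268) and F3 changed by -0.37 ± 0.09 (adjusted p = 0.00861) on the log2 scale. Without KO replicate 3 on SFA, Pdgfra (0.21, adjusted p = 0.0879) and Clec11a (0.33, adjusted p = 0.117) no longer passed. Pdgfra was also lost without replicate 1 on SFA or on n6, and Clec11a without replicate 2 or 4 on SFA or 1, 3 or 4 on n6. F3 did not pass in TPM (-0.24, adjusted p = 0.0556), and none of the 3 passed without the B cell- or muscle-rich libraries.

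In n3 against n6, F3 was higher and Dlk1 lower on n3 in both genotypes, against 18.4% of genes called in WT and 26% in KO. F3 rose 1.38-fold in WT (log2 fold change 0.46 ± 0.10, SE; adjusted p = 0.00181) and 1.29-fold in KO (log2 fold change 0.36 ± 0.09, SE; adjusted p = 0.00855), with no overlap in either. Dlk1 in WT was 0.699, 0.747, 0.817 and 0.552 CPM on n6 and 0.326, 0.324, 0.427 and 0.505 on n3, without overlap, and fell by 43.7% (log2 fold change -0.83 ± 0.26, SE; adjusted p = 0.0282). In KO it was 0.658, 0.554, 0.498 and 0.368 on n6 and 0.295, 0.279, 0.182 and 0.399 on n3, overlapping, and fell by 44.1% (log2 fold change -0.84 ± 0.28, SE; adjusted p = 0.0328). Both Dlk1 calls were lost on leaving out any of 5 of the 8 libraries singly, in WT replicates 1, 2 and 3 on n6 or 1 and 2 on n3 (adjusted p up to 0.0866), and in KO replicates 1 and 2 on n6 or 1, 2 and 3 on n3 (adjusted p up to 0.125). Icam1 fell by 18.9% on n3 in KO (log2 fold change -0.30 ± 0.08, SE; adjusted p = 0.00946) and differed by 0.05 ± 0.08 in WT. Without KO replicate 3 on n3 its adjusted p was 0.0503. In TPM, F3 in KO did not pass (0.21, adjusted p = 0.102). None of the 3 KO calls held without the B cell- or muscle-rich libraries, where F3 was at 0.31, Icam1 at -0.19 and Dlk1 at -0.57.

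Between n3 and SFA, few genes differed at all: 0.144% in WT and 1.46% in KO. No marker was called in WT (edgeR; 3 at an unadjusted p under 0.05 and 0 by DESeq2). In KO, Cd55 was higher on n3, without overlap (log2 fold change 0.24 ± 0.06, SE; adjusted p = 0.0475). That call was lost without KO replicate 1 or 3 on SFA or replicate 1, 2 or 3 on n3, with an adjusted p of up to 0.151.

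The companion genes of the stromal groups were lower in KO as well. Counts for lists are from edgeR on the TMM scale, and the TPM scale was not applied to them. The lists were chosen with earlier results of these data known, so their counts are descriptions and not independent tests. Of all tested genes, 19.9%, 22.1% and 18.7% were lower on SFA, n6 and n3. Of 12 companions of the DPP4+ group, 11 were lower and 0 higher on average (median log2 fold change -0.31), among them Mfap5, a microfibril protein (-0.46 ± 0.06), Dact2, a Wnt pathway modulator (-0.46 ± 0.06), and Anxa3 (-0.26 ± 0.04). By diet, 9 of the 12 were lower on SFA, 9 on n6 and 1 on n3, with medians of -0.39, -0.34 and -0.18. Of 10 companions of the ICAM1+ group, 8 were lower on average, led by Hsd11b1, the enzyme that regenerates glucocorticoids (-0.86 ± 0.06), Sdc1 (-0.66 ± 0.06) and the collagen gene Col15a1 (-0.33 ± 0.03). On SFA 8, on n6 7 and on n3 5 were lower, while Icam1 itself passed on n3 alone. Of 10 general stromal genes, 8 were lower on average, with Serping1, the C1 inhibitor (-0.80 ± 0.04), Gsn, an actin-severing protein (-0.66 ± 0.05), and the ectonucleotidase Entpd2 (-0.48 ± 0.03). By diet, 7, 6 and 4 of them were lower on SFA, n6 and n3.

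The companions of the CD142+ group moved the other way from F3. Of 8, 7 were lower and 0 higher on average (median -0.24), with Igfbp3, an IGF carrier, at -1.10 ± 0.08 (adjusted p = 3.83e-11), the inhibitory BMP-family ligand Gdf10 at -0.29 ± 0.05 and the proteoglycan Bgn at -0.26 ± 0.04. By diet, 3, 5 and 4 of the 8 were lower on SFA, n6 and n3, and none was higher. These counts are read beside the 29.8% of all tested genes that were lower on average.

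**Figure D4:**
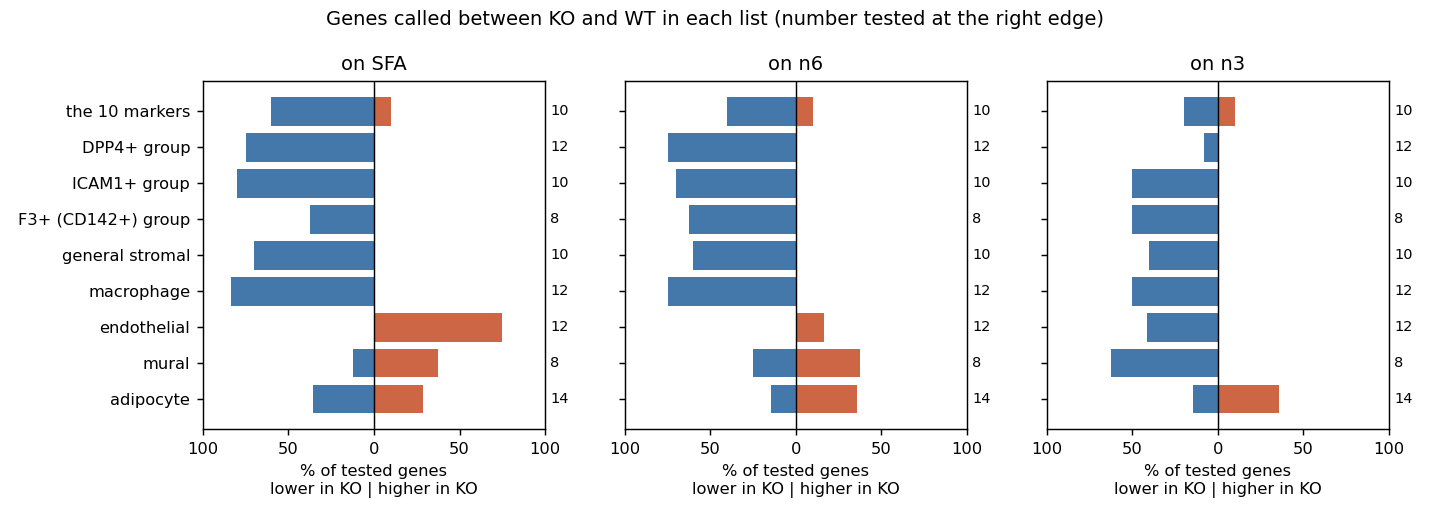
Share of tested genes in each list called lower (blue, to the left) or higher (orange, to the right) in KO on SFA, n6 and n3 (horizontal axis, percent; number tested at the right edge). The 4 stromal lists and the macrophage list have bars to the left only, and the endothelial list changes side between SFA and n3.

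Partners of the markers were read in the same way. Of all tested genes, 29.8% were lower and 27.8% higher on average. On each diet, 18.7% to 22.1% passed in each direction. Of 5 PDGF pathway genes, the ligands Pdgfa (-0.49 ± 0.03) and Pdgfc (-0.44 ± 0.05) were lower on average and on each diet, and the other 3 did not pass on average. Pdgfd, a further ligand, was higher in KO on n6 (0.36 ± 0.05, adjusted p = 1.04e-05) and lower on n3 (-0.25 ± 0.05), and its genotype difference on n3 minus that on n6 passed (-0.60 ± 0.08, adjusted p = 3.75e-04). On n3 all 5 were lower. Of 5 relatives of Dpp4, 3 were lower: Fap, a fibroblast peptidase (-0.23 ± 0.04), and, by small amounts, Prep (-0.06 ± 0.02) and Dpp9 (-0.07 ± 0.03). Around tissue factor, 6 of 8 genes were lower. The coagulation factors F7 (-1.24 ± 0.12), which binds tissue factor, and F10 (-1.09 ± 0.12), which that complex activates, and the anticoagulant receptor Thbd (-0.47 ± 0.05) had the smallest p.

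Of 7 partners of Icam1, the leukocyte integrins Itgb2 (-0.76 ± 0.08) and Itgam (-0.65 ± 0.08) were lower and none higher on average, with 2 higher and 2 lower on n6 and 5 lower on n3. Of 10 Notch pathway genes, set beside Dlk1 as a Notch-related ligand, 3 were lower, close to the 29.8% of all tested genes. They were Jag1 (-0.34 ± 0.04), Notch2 (-0.19 ± 0.04) and Dll1 (-0.19 ± 0.08). By diet, 1 was higher and 2 lower on SFA, 2 lower on n6 and 6 lower on n3. Among 5 complement regulators beside Cd55, Serping1 and Cr1l (-0.16 ± 0.02) were lower and Cd59a (0.23 ± 0.04) was higher. Of 7 Ly6 relatives, 2 were lower, Plaur (-0.55 ± 0.05) and Lypd1 (-0.87 ± 0.11), and 2 higher, Ly6h (0.44 ± 0.08) and Ly6d (1.34 ± 0.48), and on n6 4 were higher and 2 lower. Of 15 regulators of adipogenesis, 8 were lower and 4 higher. Ccn5, a Wnt-linked matricellular protein, was at -1.20 ± 0.09, Cebpb, an early adipogenic factor, at 0.68 ± 0.05, and Srebf1, a lipid synthesis factor, at 0.53 ± 0.04.

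Markers of other cells are read beside the same shares of all tested genes, 29.8% lower and 27.8% higher on average. On each diet the shares were 18.7% to 22.1% in each direction. The part of these cells in the marker results was not tested. Of 12 macrophage markers, 10 were lower in KO on average and none was higher, and their summed level on SFA was 1365 to 1608 CPM in WT and 837 to 1115 in KO. On n6 the sums were 1415 to 2054 and 1165 to 1479.8, and on n3 1414 to 1706 and 1146 to 1486. Lyz2 (-0.65 ± 0.07), Cd14 (-0.50 ± 0.06) and C1qb (-0.43 ± 0.06) led them. Of 12 endothelial markers, 9 were higher on SFA, 2 were higher on n6 and 5 were lower on n3 in KO. Their sums were 1105 to 1387 in WT and 1306 to 1774 in KO on SFA, 1432 to 1645 and 1788 to 1875 on n6, and 1270.0 to 1715 and 1109.8 to 1600.0 on n3. Of 14 adipocyte markers, 7 were higher and 5 lower on average, with Lep at -0.68 ± 0.04, Retn at 0.52 ± 0.05 and Fabp4 at 0.36 ± 0.04. The 8 mural markers went both ways: 3 were higher and 1 lower on SFA, 3 higher and 2 lower on n6, 0 higher and 5 lower on n3, and 2 higher and 2 lower on average. On average the smooth muscle actin gene Acta2 was at -1.08 ± 0.06 and Tagln at -0.38 ± 0.06, while the pericyte proteoglycan gene Cspg4 was at 0.40 ± 0.05. No macrophage, endothelial, adipocyte or mural marker was at 0 in every library.

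The remaining lists were low or uneven, and their counts stand beside the same shares of all tested genes. B cell markers were higher in KO on n6 (6 of 10), as were T cell markers (7 of 8), where KO replicates 1 and 2 are among the B cell- or muscle-rich libraries. On SFA and n3 none of either list passed as higher. Muscle markers had 5 of 12 higher and 1 lower on average, and neither of the 2 mesothelial markers tested passed. The 7 gland markers tested had 6 higher on average but summed to at most 6.89 CPM in any library. Of 5 Schwann cell markers, S100b, which adipocytes also make, was the single gene lower on average (-0.98 ± 0.06). Without the 3 B cell- or muscle-rich libraries, Pdgfra, Dpp4, Pi16 and Cd55 were still lower and F3 higher on both SFA and n6. Cd34 and Ly6a on SFA were then lost (adjusted p = 0.0913 and 0.0614).

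Read against the mean log2 CPM of the 10 general stromal genes in the same library, the 4 markers that fell on SFA and n6 differed by -0.12 to 0.16. The difference KO minus WT in Pdgfra was then -0.12 on SFA, 0.00 on n6 and 0.06 on n3 (log2), and in Pi16 0.04, -0.05 and 0.03, with overlapping groups on all 3 diets. Dpp4 was at -0.02, -0.02 and 0.12 and Cd55 at 0.06, 0.16 and 0.14, also overlapping. F3 instead rose further from the stromal genes, by 1.34, 1.05 and 0.87, with no overlap on any diet. Icam1 was higher relative to them by 0.44 on SFA and 0.43 on n6, without overlap, and level on n3 (-0.00). Cd34 was 0.26 higher without overlap on SFA, and Ly6a 0.34 higher without overlap on n6. Most of the general stromal genes were themselves lower in KO on average, so a marker that kept its level or fell less stands higher against them. Icam1 by itself differed by 0.01 ± 0.08 on SFA and 0.12 ± 0.08 on n6, neither past the threshold. These relative values are descriptions and carry no test.

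**Figure D5:**
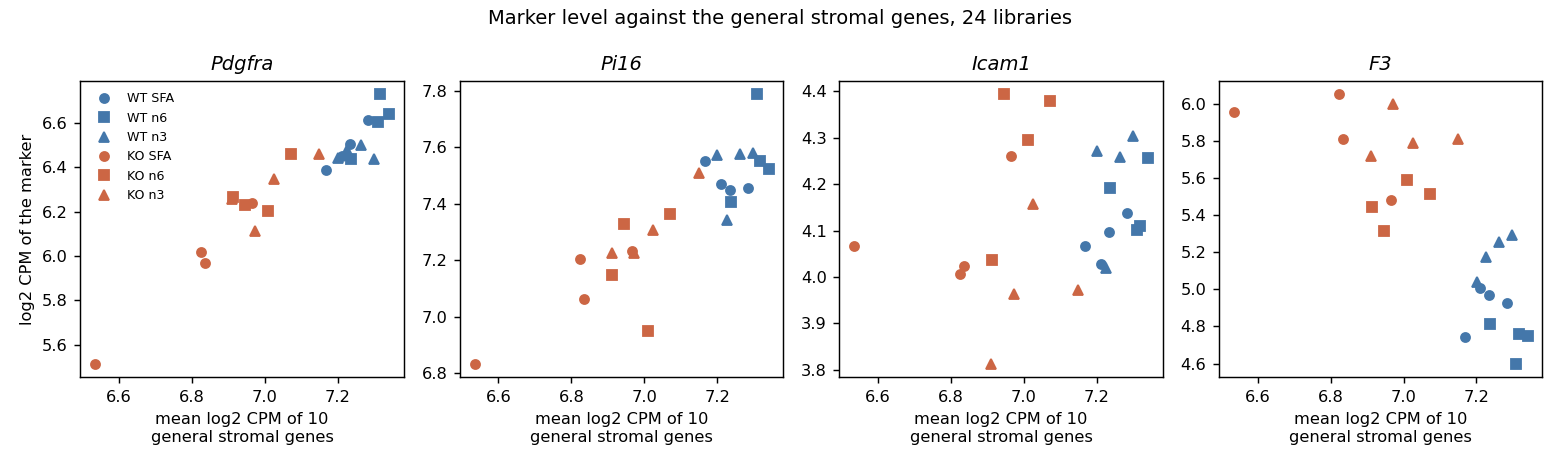
Log2 CPM of 4 markers (vertical axes) against the mean log2 CPM of 10 general stromal genes (horizontal axis) in 24 libraries; blue is WT, orange KO, and circles, squares and triangles are SFA, n6 and n3. Over all libraries Pdgfra and Pi16 rise with the stromal genes (r = 0.95 and 0.87), Icam1 scatters (r = 0.26) and F3 falls (r = -0.80). With the group means removed, r was 0.89 for Pdgfra, 0.59 for Pi16, 0.41 for Icam1 and -0.21 for F3.

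Over the 24 libraries, which share these genotype and diet groups, the falling markers moved together. Pearson's r of log2 CPM was 0.93 between Dpp4 and Pi16, 0.88 between Pdgfra and Dpp4 and 0.81 between Pdgfra and Cd55. With the group means removed these were 0.84, 0.73 and 0.53. F3 ran against Pdgfra at -0.75, and at -0.37 within groups. With the mean of its CD142+ companions F3 stood at -0.77 (-0.04 within groups), and with the adipocyte mean at 0.34 (0.43 within groups). Pdgfra followed the general stromal mean at 0.95 (0.89 within groups), and also the macrophage mean at 0.83 (0.53 within groups). Icam1 followed the endothelial mean at 0.76 (0.69 within groups) and its own companion list at 0.20. Cd34 stood between, at 0.80 with the stromal and 0.39 with the endothelial mean, and within groups at 0.65 and 0.73. These are descriptions over libraries of 6 groups, with no test.

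The genes most like each marker over the 24 libraries were taken from 11797 candidates whose mean log2 CPM reached 1, by Pearson's r. Closest to Pdgfra were Axl (r = 0.95), Emilin2 (r = 0.93) and Cd248 (r = 0.92), and to Dpp4 Rcn3 (r = 0.94), Lrrn4cl (r = 0.93) and Cd248 (r = 0.92), so Cd248, a stromal surface protein that is also among the 10 general stromal genes, was close to both. Pi16 had Sbsn (r = 0.93), Aldh1a3 (r = 0.92) and Irf4 (r = 0.91), Cd55 had Cd209d (r = 0.88), Zfp873 (r = 0.88) and Fam3c (r = 0.88) and Cd34 had Sntb2 (r = 0.93), St3gal1 (r = 0.92) and Tnrc18 (r = 0.91). Ly6a was closest to Ccl8 (r = 0.80), Maf (r = 0.77) and Fbln7 (r = 0.73). Icam1 was closest to Tek (r = 0.92), Slfn5 (r = 0.90) and Trim25 (r = 0.89), of which Tek is the endothelial angiopoietin receptor. F3 was closest to Tmem86a (r = 0.96), Tmeff1 (r = 0.95) and Ppara (r = 0.95). Clec11a had Anln (r = 0.83), Nup160 (r = 0.81) and Kcnk6 (r = 0.81), and Dlk1 had Emp2 (r = 0.80), Rnf20 (r = 0.78) and Hnrnpul2 (r = 0.75). Each r includes the differences between groups. Within groups, r fell to 0.51 for F3 with Tmem86a and stayed at 0.90 for Icam1 with Tek.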

How the data were processed

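Bulk RNA-seq of 24 libraries in 6 groups of 4 was read from 2 deposited tables. The first, deposited by the authors, gives estimated counts by gene, with decimals; they were rounded to integers before testing. The second gives TPM as computed by the authors. Per the submitters' processing notes, fastp 0.23.2 and Salmon were used with mm10 (no Salmon version or annotation is given in these notes). The tables were joined by gene name.

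Low genes were removed with filterByExpr of edgeR 4.0.16 (count 10, total 15; R 4.3.3), and quasi-likelihood F tests were fitted with TMM scaling, robust estimation and a coefficient for each group. p-values were adjusted by Benjamini-Hochberg over 15259 genes, with 0.05 as threshold. Log2 CPM had a prior count of 2. The alternatives were RLE scaling, no filter, DESeq2 1.42.0, the compared groups alone, a replicate block, limma 3.58.1 on log2 TPM with 1 or 0.1 added, each library left out, and exclusion of libraries above a mean log2 CPM of 2 in B cell or 4 in muscle markers. Scripts were tested on simulated data.

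The 10 members and all gene lists were chosen with earlier results of these data known. Named are the members, Lpcat3 and the 3 genes most like each member. From each list the 3 called genes with the smallest p averaged over diets are also named. The endothelial, T cell, muscle and gland lists are exceptions, whose genes were left unnamed. Ly6d, Pdgfd and the untested markers fall outside that rule and were named after their values were seen. Loci are from GENCODE M21 (mm10), found for all 10 members.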

Additional observations from a re-analysis of the deposited data

Results flagged for a closer look

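In 4 of 60 sets of 4 libraries, a single library stood apart from the others by more than Dixon's test allows, where chance gives about 1 in 20. Pi16 was 162 CPM in replicate 2 of WT on n3, and the next lowest was 190.4. Ly6a was 102 CPM in replicate 1 of KO on SFA, and the next highest was 87.9. Clec11a was 3.26 CPM in replicate 2 of KO on n6, and the next lowest was 3.76. Cd55 was 81.7 CPM in replicate 2 of WT on SFA, and the next highest was 73.8.

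The genotype difference of Icam1 on n3 minus that on n6 was -0.35 (log2) by the test of the difference itself (edgeR, adjusted p = 0.0498). Its genotype difference was -0.24 on n3 and 0.12 on n6.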

How the results depend on the processing

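Counts of called markers are given as reported, then under the alternative. With RLE scaling, n3 against SFA in KO went from 1 to 0. With no low-count filter, the genotype effect on n3 minus n6 went from 1 to 0, n6 against SFA in KO from 3 to 1 and n3 against SFA in KO from 1 to 0. Fitting only the groups compared gave 2 for n6 against SFA in WT (from 1), 0 for the same in KO, 0 for n3 against SFA in KO, 1 for n3 against n6 in KO (from 3) and 0 for the effect on n3 minus n6. DESeq2 gave 1 for the effect on n3 minus SFA (from 0), 2 for n3 against SFA in KO and 1 for the interaction (from 0). With limma on log2 TPM, at pseudocounts of both 1 and 0.1, KO against WT gave 8 on n6 (from 5) and 9 on n3 (from 3), the effect on n3 minus n6 gave 0, n6 against SFA gave 2 in WT and 5 in KO, and n3 against SFA in KO gave 0. Without the B cell- or muscle-rich libraries, the effect on n3 minus n6, n6 against SFA in KO and n3 against n6 in KO all gave 0. Ly6a on n6 reversed to -0.19 with limma on log2 TPM at either pseudocount. The cause of these changes was not tested.

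The replicate block gave 0 for the effect on n3 minus n6, 2 for n6 against SFA in WT and 1 for the interaction. With the block, Cd34 on SFA (adjusted p = 0.0507) and Icam1 for n3 minus n6 (adjusted p = 0.0662) did not pass. Whether replicate numbers pair the libraries was not settled. In no comparison did all 4 same-number pairs correlate above 0.1, and at most 2 of 4 did. That cut-off cannot exclude pairing of some libraries. For n6 against SFA in KO, the same-number pairs 1 to 4 had r of 0.25, 0.26, 0.09 and -0.06. The best pairings with another number had 0.003, 0.08, 0.08 and 0.08.

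Counts over all genes moved by more than 1.5 times as follows. For the effect on n3 minus SFA, 125 genes became 56 with no filter, 70 with the replicate block, 6 with only the groups compared, 650 with DESeq2, 28 and 27 with limma at pseudocounts of 1 and 0.1, and 52 without the B cell- or muscle-rich libraries. DESeq2 gave 408 for n6 minus SFA (from 137), 334 and 583 for n3 against SFA in WT and KO (from 22 and 223) and 1939 for the interaction (from 983). Fitting only the groups compared gave 31 for n3 against SFA in KO and 1724 for n3 against n6 in KO (from 3972). Limma at a pseudocount of 1 gave 262 for n6 minus SFA, and at 1 and 0.1 it gave 833 and 801 for n3 minus n6 (from 1389) and 6068 and 5896 for n6 against SFA in WT (from 3776). Without the B cell- or muscle-rich libraries, n6 minus SFA gave 30, n3 minus n6 570, n6 against SFA in KO 1208 (from 3474), n3 against n6 in KO 1215 and the interaction 405.

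Leaving out each library gave 5 to 6 called markers for KO against WT on SFA, 3 to 5 on n6, 1 to 5 on n3 and 6 to 9 on average. It gave 0 to 0, 0 to 1 and 0 to 1 for the effects on n6 minus SFA, n3 minus SFA and n3 minus n6. In WT it gave 1 to 2, 0 to 0 and 1 to 2 for n6 against SFA, n3 against SFA and n3 against n6, in KO 1 to 5, 0 to 2 and 1 to 3, and 0 to 2 for the interaction. Over single markers, 2194 of 2470 values kept direction and call. The lowest counts were those of Dlk1, 8 to 51 per library.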
